A study of Mus musculus with 2 samples.

Results

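The genes described here make the ribosome. They comprise the symbols that begin with Nop, Utp, Rrp, Nol or Noc and a digit, the Polr1 subunits of RNA polymerase I, the Exosc subunits of the RNA exosome, and Npm1, Ncl and Fbl. The symbols were matched among protein-coding genes of GENCODE release M21, with no measured value used. The rule gave 56 genes, on 19 chromosomes, out of 21474 protein-coding genes and 43346 annotated genes in all. The exosome subunit Exosc6 found no match and was not analysed here. Polymerase I subunits that M21 lists under other symbols, such as Twistnb, Cd3eap and Znrd1, are outside the rule and are given with the partner genes.

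RNA polymerase I transcribes the precursor of the large ribosomal RNAs in the nucleolus. Box C/D and box H/ACA small nucleolar RNAs (snoRNAs) and their core proteins modify that precursor, a large assembly called the small subunit processome folds and cuts out the 18S rRNA, other factors build the large subunit around the 28S and 5.8S rRNAs, and the RNA exosome trims and degrades RNA from its 3′ end. Red cell progenitors divide fast and make much protein, and defects in ribosome production are known to cause inherited anaemias in humans.

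The RNA came from G1E, an immortalised mouse line of erythroid progenitors labelled Gata1-; GATA1 is a transcription factor needed for red cells to mature. The study holds 2 libraries of poly(A)-selected RNA in 1 group, both Gata1-, both untreated as far as the labels say, and both of male postnatal origin at 0 days. They are labelled biological replicates 1 and 2 of the same biosample, so every value is from 1 line and the spread between the libraries may be technical. With no second condition, no test of a condition was possible and no p-value is given. Replicate 1 held 31645051 expected counts and replicate 2 held 56983558, where an expected count is the estimated number of reads of a gene. The line's label was checked with 9 erythroid progenitor markers, each between 87.1 and 764 TPM in both libraries. None of 9 markers of other blood cells and tissues reached 1 TPM in both, and their highest value was 1.68 TPM, in replicate 1. The markers differed between the libraries. The summed level of the erythroid markers was 2805 and 1617 TPM in replicates 1 and 2, and that of the other markers 3.15 and 0.32 TPM. Bulk levels average over cells, so more cells that express a gene and more RNA per cell cannot be told apart.

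Some of these genes carry snoRNAs inside their introns, so that 1 precursor RNA gives both a protein of the snoRNA particle and its guide RNAs. In the annotation 13 snoRNA genes lie within 4 of the 56 genes, with 5 in Nop56, 4 in Nop58, 3 in Ncl and 1 in Nop53. That is 7.14% of the genes, against 2.14% of expressed protein-coding genes. The following 4 box C/D snoRNAs and 1 further snoRNA are shown because their hosts are among the most abundant genes of the group. They are the GENCODE M21 transcripts of GRCm38, written as DNA from 5′ to 3′, and capitals mark the letters TGATG within 20 bases of the 5′ end and CTGA within 20 bases of the 3′ end, which are the core letters of the box C and box D elements.
Snord110 (in Nop56, chr2:130275506-130275573, plus strand): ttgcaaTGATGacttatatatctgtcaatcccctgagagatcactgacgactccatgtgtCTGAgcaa
Snord70 (in Nop58, chr1:59691934-59692020, plus strand): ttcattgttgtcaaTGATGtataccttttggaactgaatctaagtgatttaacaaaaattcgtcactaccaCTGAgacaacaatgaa
Snord11 (in Nop58, chr1:59704790-59704873, plus strand): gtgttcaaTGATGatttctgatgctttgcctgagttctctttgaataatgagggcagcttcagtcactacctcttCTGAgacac
Snord82 (in Ncl, chr1:86356261-86356330, minus strand): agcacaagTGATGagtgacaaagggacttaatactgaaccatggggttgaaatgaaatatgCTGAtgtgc
Snora75 (in Ncl, chr1:86351169-86351301, minus strand): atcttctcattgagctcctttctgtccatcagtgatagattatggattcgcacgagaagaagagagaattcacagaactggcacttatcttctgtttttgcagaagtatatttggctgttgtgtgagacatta

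Of the 13 sequences, 10 held both sets of letters. The counts listed for them were small. Snord110 had 0 counts in replicate 1 and 1 in replicate 2, Snord70 had 0 and 2, Snord11 had 1 and 2, and Snord82 had 0 in both. Snora75 had 4.15 counts in replicate 1 and 107 in replicate 2. It overlaps an annotated exon of a Ncl transcript, so reads of the host and of the snoRNA share sequence there. All 13 together came to 45.6 counts in replicate 1 and 144 in replicate 2, while their hosts had between 3319 and 117975 counts. Mature snoRNAs carry no poly(A) tail and are short, so a poly(A)-selected library does not measure them, and these counts are no measure of snoRNA abundance.

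The region before the start site was also compared. The RefSeq table for GRCm38.p6 held 51 windows for 44 of the genes, each of 300 bases from 250 before to 50 after the annotated start. The letters CACGTG, the core of the E-box that MYC and MAX bind, stood on either strand in 8 windows, which is 15.7%. They stood in 10.7% of the windows of expressed protein-coding genes and 7.15% of all windows. The letters CCGGAA, the core of sites bound by ETS factors, stood in 49.0% of the windows, against 31.8% for expressed genes and 14.9% for all. The GC-box letters GGGCGG stood in 76.5%, 65.4% and 35.7% of the same 3 sets. The letters CCAAT stood in 29.4%, 39.0% and 37.4%, TATAAA in 5.88%, 6.29% and 13.6%, and AGATAA, a form of the GATA motif, in 3.92%, 6.21% and 11.2%. Both strands were searched for each motif and matches of different motifs may overlap. A match is a run of letters and not a bound site, and the windows of 1 gene overlap each other. The 2 windows below hold both CACGTG and CCGGAA, in capitals on either strand, and belong to a 28S rRNA methyltransferase and to a small subunit factor whose levels are given further down.
Nop2 (chr6:125131633-125131932, plus strand, GRCm38.p6): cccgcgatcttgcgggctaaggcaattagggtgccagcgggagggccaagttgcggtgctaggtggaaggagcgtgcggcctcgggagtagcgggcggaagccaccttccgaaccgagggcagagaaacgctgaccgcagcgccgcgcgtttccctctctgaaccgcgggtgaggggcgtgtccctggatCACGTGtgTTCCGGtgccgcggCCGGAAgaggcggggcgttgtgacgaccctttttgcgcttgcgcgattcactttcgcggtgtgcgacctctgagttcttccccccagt
Rrp7a (chr15:83122752-83123051, minus strand, GRCm38.p6): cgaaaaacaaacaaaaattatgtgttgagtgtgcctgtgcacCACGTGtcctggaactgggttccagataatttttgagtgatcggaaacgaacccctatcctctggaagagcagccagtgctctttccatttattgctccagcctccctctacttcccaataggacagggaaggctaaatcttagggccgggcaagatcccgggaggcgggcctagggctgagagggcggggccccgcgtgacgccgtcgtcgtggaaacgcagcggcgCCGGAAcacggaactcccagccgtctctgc

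Nearly the whole group was expressed, and much of it at high level. Of the 56 genes, 54 reached 1 TPM in each library, which is 96.4%, against 42.5% of protein-coding genes. TPM divides the counts by the effective length of the transcripts and scales each library to the same total, so it allows levels of different genes to be compared. Of the 56 genes, 49 reached 10 TPM in both libraries, and 18 reached 100 TPM in both. The median over the genes was 63.9 TPM as a mean over the libraries, with 58.7 and 64.1 TPM in replicates 1 and 2. The median was 23.5 TPM for expressed protein-coding genes and 0.365 TPM for all protein-coding genes. On the log2(TPM + 1) scale the medians were 5.97, 4.57 and 0.42. In mean level 29 of the 56 genes lay above the 90th percentile of protein-coding genes. Together they held 7204 and 8036 TPM in replicates 1 and 2, or 0.854% and 1.07% of the TPM of protein-coding genes.

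**Figure D1:**
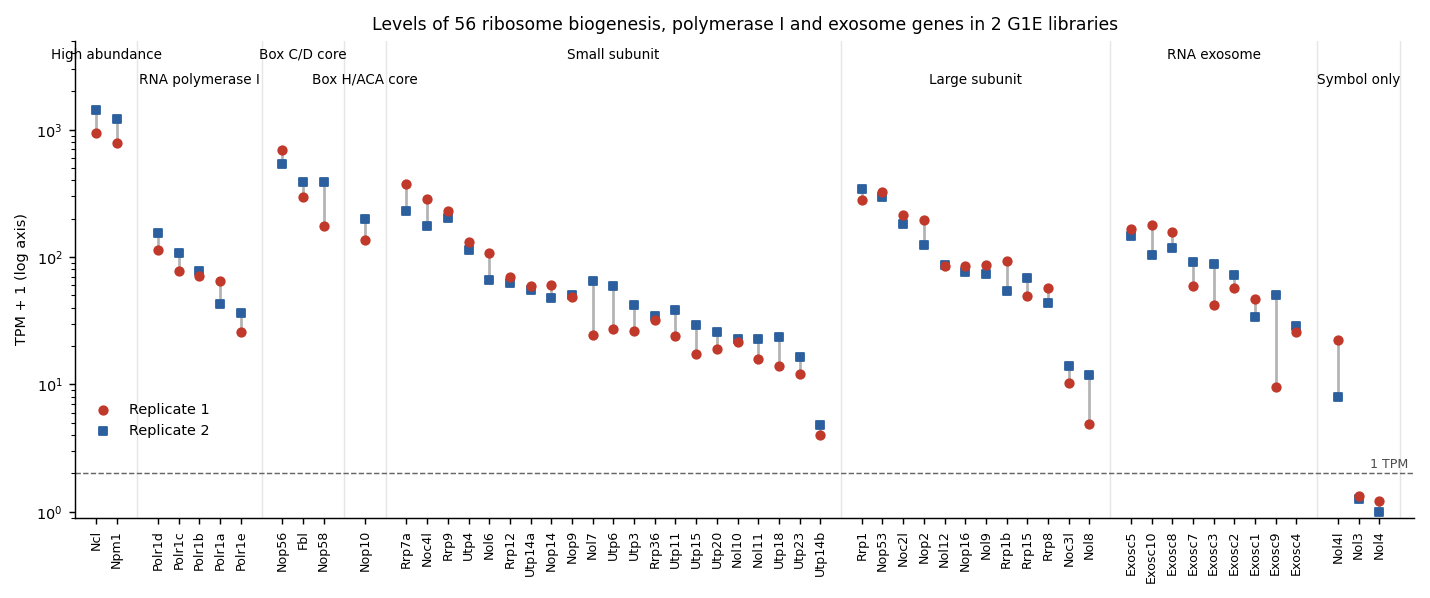
Level of each of the 56 genes in TPM + 1 on a log axis, grouped by role and ordered by mean level, with replicate 1 as circles and replicate 2 as squares joined by a grey line. The dashed line is at 1 TPM, and Nol3 and Nol4 at the right are the 2 genes under it. Ncl and Npm1 are highest, and Exosc9 has the longest line among the genes above 1 TPM.

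The abundant nucleolar proteins led the group. Ncl (ENSMUSG00000026234.8, chromosome 1 from 86344719 to 86359400) encodes nucleolin, which binds the rRNA precursor and nucleolar chromatin. It had 949 and 1439 TPM in replicates 1 and 2, from 46387 and 117975 counts. Npm1 (ENSMUSG00000057113.9, chromosome 11 from 33152287 to 33163206) encodes nucleophosmin, a chaperone of the outer nucleolus and a gene mutated in human leukaemia. It had 790 and 1208 TPM in replicates 1 and 2. Both genes were higher in replicate 2 in TPM and in scaled counts, where the log2 ratio of replicate 2 over replicate 1 was 0.44 for Ncl and 0.77 for Npm1. With the trend of the ratio on GC content subtracted the direction turned, to -0.16 for Ncl and -0.24 for Npm1. The ratio of the pair was nearly the same in each library, with Npm1 over Ncl at -0.26 ± 0.008 on the log2(TPM + 1) scale (SD, n = 2). Ncl, Npm1 and Nop56 held 33.8% of the group's TPM in replicate 1 and 39.7% in replicate 2. Npm1 shares 27.2% of its 36-mers, the stretches as long as a read of replicate 1, with other genes, most of all with a processed pseudogene, so part of its count rests on how the quantifier divided such reads.

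Genes of the snoRNA particles came next. The box C/D particle places ribose methyl groups on rRNA with fibrillarin, the methyltransferase encoded by Fbl, on a scaffold of Nop56 and Nop58. Nop56 had 693 and 541 TPM in replicates 1 and 2. Fbl had 294 and 386 TPM, and Nop58 had 174 and 390 TPM. Nop56 stood above the other two in both libraries, while the values of Fbl and Nop58 overlapped. The difference of Nop56 over Nop58 was 1.23 ± 1.07 on the log2(TPM + 1) scale (SD, n = 2), with a ratio of 3.97 in replicate 1 and 1.39 in replicate 2. Nop10, a core protein of the box H/ACA particle that guides pseudouridylation, had 135 and 199 TPM. It was lower than its partner Nhp2 in both libraries, with Nop10 over Nhp2 at -1.04 ± 0.12 on the log2(TPM + 1) scale (SD, n = 2).

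The 5 RNA polymerase I subunits with a Polr1 symbol were all expressed, with a median of 73.8 TPM, and stood in the same order in both libraries. Polr1d, a subunit shared with RNA polymerase III, was highest of the 5 at 113 and 152 TPM in replicates 1 and 2. Polr1c, the other shared subunit, had 76.1 and 107 TPM. Polr1b, the second largest subunit, had 70.5 and 77.1 TPM. The ranges of Polr1c and Polr1b over the libraries overlapped, and those of other neighbours in the order did not. Polr1a, the largest subunit, which forms the active centre with Polr1b, had 63.4 and 41.7 TPM, below Polr1b in each library. These are gene totals over all annotated transcripts. Protein-coding transcripts held 58.0% and 60.8% of the TPM of Polr1b and 100% of that of Polr1a. The order of these 2 genes in replicate 1 thus rests on the other Polr1b transcripts. Polr1e, of the peripheral dimer that takes part in initiation, was lowest of the 5 at 24.8 and 35.6 TPM. Its partner in that dimer, Cd3eap, also named Polr1g, was higher than Polr1e in both libraries at 63.7 and 39.2 TPM. Twistnb, another subunit, also named Polr1f, was lower than Polr1e in both at 4.96 and 19.98 TPM. Polr1e over Polr1b was -1.28 ± 0.27 on the log2(TPM + 1) scale (SD, n = 2). The highest of the 5 exceeded the lowest 4.56-fold in replicate 1 and 4.27-fold in replicate 2, and with Twistnb, Cd3eap and Znrd1 added, for 8 subunits, 22.8-fold and 7.62-fold. Polr1c over Polr1d was -0.54 ± 0.05 (SD, n = 2).

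The RNA exosome was expressed throughout its matched subunits. A ring with no catalytic activity of its own is built from Exosc4, Exosc5, Exosc7, Exosc8, Exosc9 and a member not analysed here, Exosc1, Exosc2 and Exosc3 cap it, and Exosc10 is a nuclear exonuclease bound to it. All 9 reached 1 TPM in each library, and their median was 64.1 TPM. Exosc5 had 166 and 146 TPM in replicates 1 and 2, Exosc10 had 178 and 102 TPM, and Exosc8 had 156 and 118 TPM. The ranges of these 3 overlapped and lay above all other subunits in both libraries. Exosc7 had 57.9 and 90.2 TPM, Exosc3 had 41.1 and 87.1 TPM, and Exosc2 had 56.6 and 71.0 TPM, again with overlapping ranges. The lowest 3 were Exosc1 at 46.3 and 32.7 TPM, Exosc9 at 8.55 and 49.1 TPM and Exosc4 at 24.7 and 27.6 TPM. Exosc2 and Exosc1 did not overlap, while the range of Exosc3 took in values of Exosc1 and Exosc9. Exosc9 and Exosc4 form a pair within the ring. Exosc4 exceeded Exosc9 by 2.89-fold in replicate 1 and was lower in replicate 2, at a ratio of 0.563, so the libraries give no direction for that pair. The highest subunit exceeded the lowest 20.8-fold in replicate 1 and 5.27-fold in replicate 2, and without Exosc9 the value for replicate 1 was 7.20-fold.

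**Figure D2:**
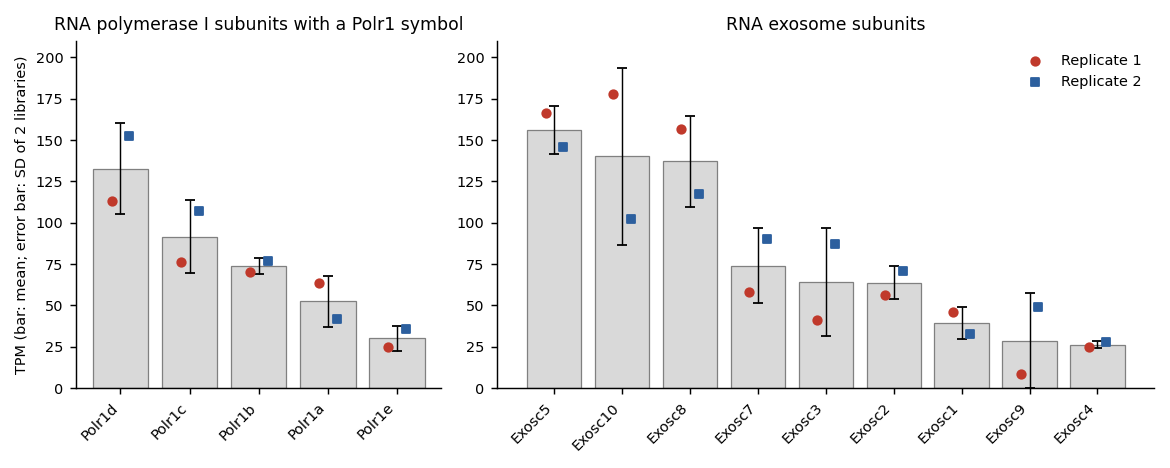
TPM of the 5 Polr1 subunits of RNA polymerase I and the 9 exosome subunits on a linear axis from 0, with bars at the mean, error bars for the SD of the 2 libraries, circles for replicate 1 and squares for replicate 2. Of the 5 plotted polymerase subunits Polr1d is the highest and Polr1e the lowest in both libraries, and Exosc5, Exosc10 and Exosc8 stand above the other exosome subunits, with 8.55 and 49.1 TPM for Exosc9 as the widest relative gap. Levels are gene totals over all annotated transcripts, coding or not.

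Small subunit factors were all expressed but at the lowest median of the role lists with more than 3 expressed genes. The 21 genes had a median of 42.2 TPM and a range of means between 3.38 and 304 TPM. Rrp7a, a factor of early small subunit assembly, was highest as a gene total over all annotated transcripts, with 377 and 231 TPM in replicates 1 and 2. Noc4l had 284 and 174 TPM, and Rrp9, the protein that marks the U3 snoRNA particle, had 229 and 200 TPM. These 3 genes were all higher in replicate 1 in TPM. Protein-coding transcripts held 14.7% and 13.1% of the TPM of Rrp7a in replicates 1 and 2. In Utp4, with 131 and 113 TPM, they held 100% in both. The top rank of Rrp7a thus rests on its other transcripts, which are described further down. At the other end Utp18 had 13.1 and 22.7 TPM, Utp23 had 11.1 and 15.4 TPM, and Utp14b had 3.00 and 3.76 TPM. Utp14b is an autosomal retrocopy of the X-linked Utp14a, known in mice for its need in sperm production. Utp14a had 58.1 and 53.8 TPM, 19.4-fold the level of Utp14b in replicate 1 and 14.3-fold in replicate 2, a difference of 3.71 ± 0.25 on the log2(TPM + 1) scale (SD, n = 2). Utp14b lies inside Acsl3 on the same strand, so reads of Acsl3 could be counted for it. Their part in its level was not tested.

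Large subunit factors had a median of 79.7 TPM over 12 genes, with means between 7.34 and 311 TPM. Rrp1 was highest by its mean, at 279 and 344 TPM in replicates 1 and 2. Nop53, which brings an exosome cofactor to the maturing large subunit, had 326 and 294 TPM, above Rrp1 in replicate 1 and below it in replicate 2, and Noc2l had 213 and 180 TPM. Rrp1 was the 1 of these 3 that was higher in replicate 2. The lowest were Rrp8, an rRNA methyltransferase, at 56.6 and 42.7 TPM, Noc3l at 9.26 and 13.0 TPM and Nol8 at 3.85 and 10.8 TPM. Noc3l and Nol8 stood well apart from the rest of the list. Noc2l and Noc3l belong to 1 family, and Noc2l exceeded Noc3l by 4.04 ± 0.49 on the log2(TPM + 1) scale (SD, n = 2). Rrp1b, the paralog of Rrp1, had 91.8 and 53.0 TPM and was lower than Rrp1 in both libraries, with Rrp1b over Rrp1 at -2.13 ± 0.76 on the log2(TPM + 1) scale (SD, n = 2). Nop2, which methylates 28S rRNA and whose promoter is printed above, had 196 and 123 TPM.

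The 2 genes under 1 TPM bear the name nucleolar protein by symbol and are not known as ribosome factors. Nol3, an inhibitor of cell death, had 0.33 and 0.25 TPM in replicates 1 and 2, from 22 and 32 counts, with exact Poisson 95% intervals of 13.8 to 33.3 and 21.9 to 45.2 that cover counting error only. Nol4 had 0.22 TPM on 14 counts in replicate 1 and no count in replicate 2, where 3 counts would have been 0.0331 TPM. The exact Poisson intervals of these counts, 7.65 to 23.5 and 0 to 3.69, did not overlap, and the 0 was in the deeper library. Nol4l, related to Nol4, was expressed at 21.3 and 7.01 TPM. Of the 17 pairs of subunits or paralogs fixed for comparison 16 were measured, and 6 differed at least 2-fold the same way in both libraries. Besides the pairs of Polr1e, Utp14a, Noc2l and Rrp1b above these were Nol4l over Nol4 and Exosc10 over Dis3, the catalytic subunit of the nuclear exosome, at 2.10 ± 1.14 on the log2(TPM + 1) scale (SD, n = 2).

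Genes of the same pathways outside the symbol rule were expressed as well. Of 125 partners measured, drawn from 5 lists, all 125 reached 1 TPM in each library. The 16 polymerase I partners had a median of 28.9 TPM, led by the shared polymerase subunits Polr2f at 161 ± 59.1 TPM and Polr2e at 146 ± 34.4 TPM and by Ubtf, the activator that opens rDNA chromatin, at 129 ± 21.8 TPM (SD, n = 2 for all). The 13 snoRNP partners had a median of 105 TPM, led by the assembly ATPase Ruvbl2 at 401 ± 178 TPM, by Nhp2 at 348 ± 122 TPM and by Snu13, the fourth core protein of the box C/D particle, at 265 ± 11.8 TPM (SD, n = 2 for all). The 33 small subunit partners had a median of 61.5 TPM, led by the methyltransferase Emg1 at 182 ± 8.27 TPM, by Imp4 at 162 ± 45.4 TPM and by Wdr75 at 150 ± 104 TPM (SD, n = 2 for all).

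The 49 large subunit partners had a median of 68.1 TPM, led by Eif6, which keeps the subunits apart, at 447 ± 140 TPM, by Ppan at 292 ± 0.81 TPM and by Ebna1bp2 at 237 ± 25.3 TPM (SD, n = 2 for all). The 14 exosome cofactors had a median of 24.0 TPM, led by Skiv2l, a helicase of the cytoplasmic exosome, at 73.3 ± 19.7 TPM, its partner Wdr61 at 62.3 ± 26.9 TPM and the poly(A) polymerase Tent4b at 44.5 ± 24.5 TPM (SD, n = 2 for all). The medians of the exosome subunits and the Polr1 subunits were thus above those of their partner lists, 64.1 against 24.0 TPM and 73.8 against 28.9 TPM. For the small and large subunit lists they were 42.2 against 61.5 TPM and 79.7 against 68.1 TPM. The polymerase I partners include 8 subunits of the enzyme under other symbols, of which Twistnb, Polr2k and Polr2l had means of 12.5, 11.2 and 9.09 TPM. These medians describe the lists and were not tested.

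**Figure D3:**
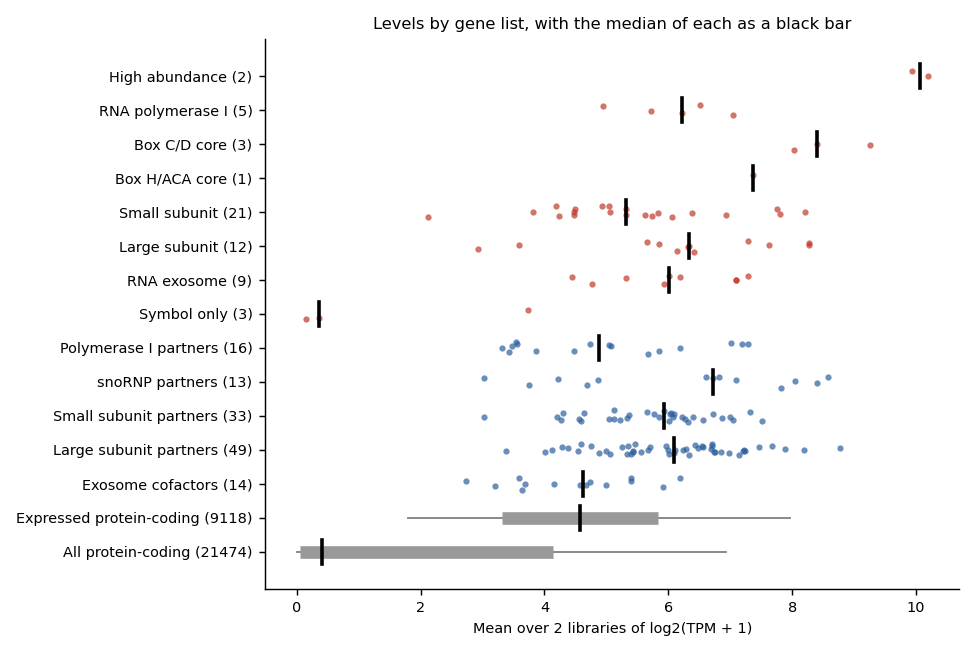
Mean over the 2 libraries of log2(TPM + 1) for each gene of the role lists (red points), of the partner lists (blue points) and, for protein-coding genes, the range from the 5th to the 95th percentile (line) and the middle 50% (thick bar); black bars are medians and the number of genes is in brackets. The role lists of ribosome factors have their medians above that of expressed protein-coding genes at 4.57, and the symbol-only list of 3 genes does not.

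Between the libraries 8 of these genes stood at least 2-fold apart, 7 of them higher in replicate 2. They include 2 exosome subunits, a box C/D scaffold protein and 4 factors of subunit assembly. Ratios are replicate 2 over replicate 1 of counts scaled by TMM, a method that sets library sizes so that most genes do not differ, among genes with at least 50 counts over both libraries. The 8 of 55 such genes make 14.5%, against 25.4% of 10467 protein-coding genes. The 7 higher in replicate 2 make 12.7%, against 14.1%, and the 1 lower makes 1.82%, against 11.3%. The share higher in replicate 2 was close to that of all genes. Among expressed genes with as many counts, the 7 higher make 13.0% of 54, against 13.3% of 9110 protein-coding genes. The 1 lower makes 1.85%, against 5.84%, and the 8 in all make 14.8%, against 19.1%. The median log2 ratio was 0.21, against 0.01 for protein-coding genes, and 33 of 55 genes were above 0, against 5299 of 10467. With 1 library against 1 these ratios have no replicate check.

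Exosc9 was furthest apart, with 178 counts in replicate 1 and 2128 in replicate 2, a log2 ratio of 2.67. Ccna2 overlaps it on the opposite strand and had 7742 and 13639 counts, a log2 ratio of -0.09. Whether strand was used in counting is not given in the sources used here. Exosc3, of the cap, had 668 and 3293 counts, a log2 ratio of 1.39, and Dcaf10 on its opposite strand had a log2 ratio of 0.96. The other 5 genes higher in replicate 2 were Nol8 at 1.53, Nol7 at 1.48, Nop58 at 1.22, Nol11 at 1.12 and Utp6 at 1.04. Nol4l, with 2319 counts in replicate 1 and 1518 in replicate 2, was the 1 gene lower in replicate 2, at -1.52. Among the partners, 11 of 33 small subunit and 8 of 49 large subunit genes were at least 2-fold higher in replicate 2, which is 33.3% and 16.3%, against 14.1% of protein-coding genes. Under 45% GC 40.7% of protein-coding genes were higher, and the partners were not set beside genes of like GC content. Of 16 polymerase I partners 2 were higher, of 13 snoRNP partners 1, and of 14 exosome cofactors 2, which is 12.5%, 7.69% and 14.3%. The 1 partner lower in replicate 2 was an exosome cofactor, the poly(A) polymerase Tent4a at -1.14, against 11.3% of protein-coding genes lower. Of the 9 erythroid markers 3 were at least 2-fold lower in replicate 2, with a median log2 ratio of -0.44 over the 9, and the 2 other-cell markers with enough counts were lower, at -6.12 and -6.19. The part of the cells' state in the ratios of these genes was not tested.

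GC content moved with these ratios. Across the 55 genes the ratio and the GC content of the annotated transcripts had a Pearson correlation of -0.63 and a Spearman correlation of -0.67, and across the 10467 protein-coding genes -0.27 and -0.48. All points share the same 2 libraries and genes are not independent replicates, so these are descriptions. Of 13 genes under 45% GC, 12 had a ratio above 0 and the median was 0.80, as it was over all genes in that range. Of 20 genes between 50% and 55%, the most in any band, 11 had a ratio above 0 and the median was 0.11, against -0.24 and 971 of 2855 for all genes. Of 11 genes at 55% or more, 2 had a ratio above 0 and the median was -0.21, against -0.35 for all genes. Of the 7 genes higher in replicate 2, 5 were under 45% GC, which is 71.4%, against 65.97% of the 1478 protein-coding genes higher. Those 5 are 38.5% of the 13 genes in that range, against 40.7% of protein-coding genes there. With the GC trend of all genes subtracted 4 genes, or 7.27%, were at least 2-fold apart, against 17.5% of protein-coding genes. They were Exosc9 at 2.12, Exosc3 at 1.49, Polr1c at 1.04 and Nol4l at -1.27. The libraries also differ in depth and in read length, at 36 and 55 nt, whose part was not tested.

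**Figure D4:**
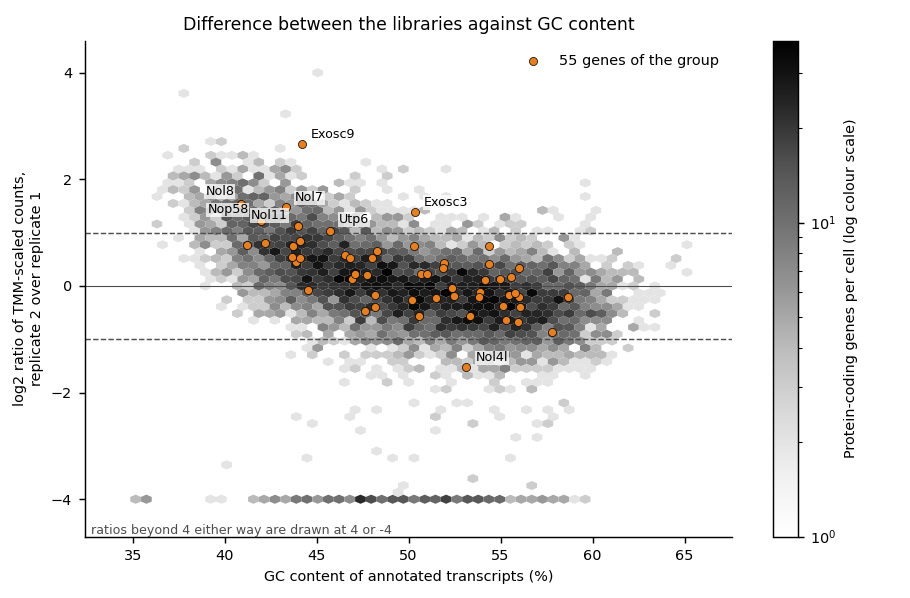
The log2 ratio of TMM-scaled counts, replicate 2 over replicate 1, against the GC content of each gene's annotated transcripts, with the 55 genes as orange points over the density of 10467 protein-coding genes in grey; dashed lines are 2-fold either way. The 8 genes past them are named, and points to the left, under 45% GC, lie mostly above 0.

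The transcripts to which reads were assigned differed between the genes. The transcript tables give the share of a gene's TPM for each annotated transcript. Of 36 expressed genes with more than 1 transcript, 27 had the same leading transcript in both libraries, which is 75%, against 69.3% of such protein-coding genes. The leading transcript was annotated as protein-coding in both libraries for 43 of 54 expressed genes. Genes with under 50% of their TPM in protein-coding transcripts numbered 7 of 54 in replicate 1 and 8 of 54 in replicate 2, or 13.0% and 14.8%, against 17.2% and 12.2% of expressed protein-coding genes. Genes with 25% or more in transcripts annotated with a retained intron numbered 6 in each library, or 11.1%, against 12.1% and 10.3%. These shares lay near those of expressed protein-coding genes.

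Ncl had 92.3% of its TPM in replicate 1 and 92.8% in replicate 2 in transcripts annotated with a retained intron. Ncl-202, of 3072 nt, had 56.6% and 42.6% of the TPM and 82.1% and 71.2% of the counts. Ncl-205, of 601 nt, had 35.5% and 49.2% of the TPM but 9.59% and 14.9% of the counts. The full coding model, Ncl-201, is 8202 nt long, with a last exon of 5978 nt, and received 6.37% and 12.04% of the counts. The last exon of Ncl-202 is 202 nt long. The gene's TPM thus rests on annotated models shorter than the full coding one, and these shares do not show how much of the RNA retained an intron. In Rrp9 a decay-annotated transcript of 482 nt had 60.0% and 55.1% of the TPM on 31.1% and 28.8% of the counts, while the coding Rrp9-201 had 64.85% and 60.2% of the counts. For Rrp7a, transcripts annotated for nonsense-mediated decay, the pathway that degrades RNAs with early stop codons, had 83.2% and 81.6% of the TPM. By counts the shares were smaller. The decay-annotated Rrp7a-203, of 486 nt, had 37.5% and 25.2% of the counts, and Rrp7a-204, of 759 nt, had 16.7% and 20.5%. The coding Rrp7a-201, of 4363 nt, had 39.3% and 49.0%, the most of any single Rrp7a transcript in each library.

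In Npm1 the leading transcript differed between the libraries. Npm1-203, of 966 nt, had 82.8% of the TPM in replicate 1 and 33.0% in replicate 2, and Npm1-204, of 1157 nt, had 15.1% and 53.3%. Both are protein-coding. Nop16 had 46.7% of its TPM in a decay-annotated transcript in replicate 1 and 7.22% in replicate 2, and Nol9 had 66.2% and 29.3%. The exosome cap gene Exosc3 had 77.7% and 75.2% in processed transcripts, which have no annotated reading frame, and Exosc8 had 45.4% and 56.7% in retained-intron transcripts. Nop56, with 19 annotated transcripts, had 47.1% and 47.8% in retained-intron transcripts, close to each other in both libraries. Rrp1b had 57.5% and 68.7%, and its gene TPM of 91.8 and 53.0 stands beside a log2 count ratio of -0.18, so a TPM difference between the libraries can come with a small count difference where the leading transcripts differ in length.

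**Figure D5:**
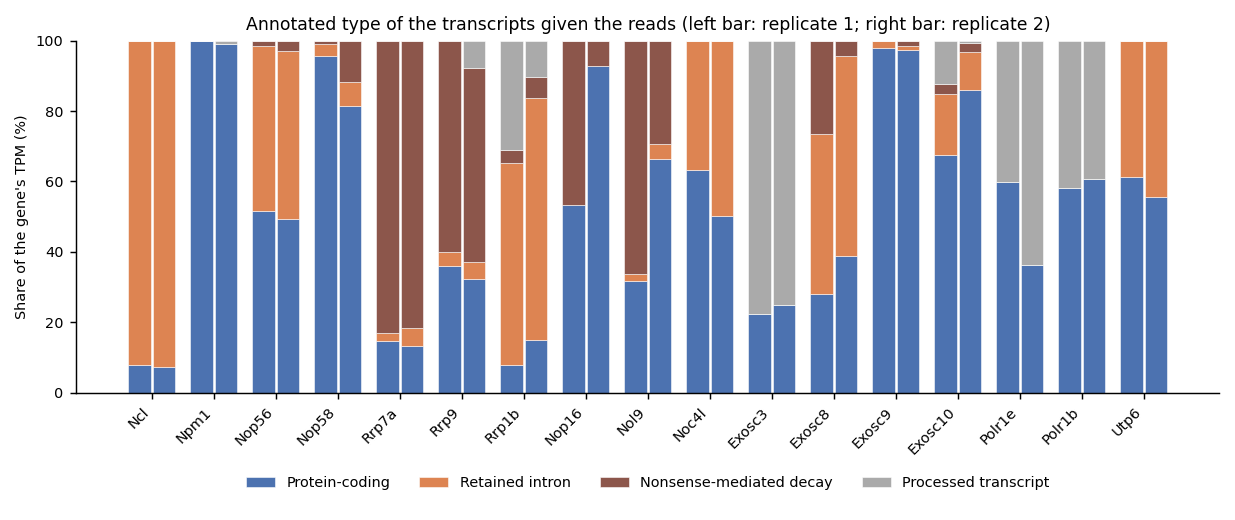
Share of each gene's TPM, in percent, by the annotated type of its transcripts, for 17 genes that the text describes or that lead the role lists, with replicate 1 as the left bar and replicate 2 as the right bar of each pair. Ncl has over 92% in retained-intron models in both libraries, while Nop16 and Nol9 have a larger decay-annotated share in replicate 1 than in replicate 2.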

How the data were processed

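The 2 libraries of poly(A)-selected G1E RNA form 1 group. The assembly mm10 and annotation release M4 are named in the notes deposited with the files, which trace each library's tables to its own transcriptome alignments, not pooled. For the aligner, the quantifier, their versions and the use of strand, nothing is given in the sources used here. The deposited expected counts estimate the reads of each gene or transcript and are not normalised. TPM and FPKM values were deposited per effective length, per the file headers, and the TPM of a library add up to a fixed total. A deposited signal column gives the posterior mean of TPM. Per the file headers, the transcript tables hold a percent for each transcript, its part of the TPM of its gene. Effective lengths imply reads of 36 and 55 nt in replicates 1 and 2. Protein-coding genes held 84.4% of the TPM in replicate 1 and 75.1% in replicate 2, so TPM in replicate 2 is lowered for the same share of coding RNA.

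Symbols, types and positions came from GENCODE M21 (GRCm38), matched on identifiers without version. Annotated names and types of transcripts are those of M21, while lengths are those of the deposited tables, which differ for some transcripts. Entries without a gene name, 26345 of them, were dropped and held 0.0363% and 0.00942% of the counts. Of 10 list symbols without a match 8 are other names of genes measured here (Polr1f is Twistnb, Polr1g Cd3eap, Polr1h Znrd1, Utp25 Diexf, Utp11l Utp11, Skiv2l2 Mtrex, Papd5 Tent4b and Papd7 Tent4a). The other 2, Exosc6 and Riok2, were not analysed here. Expressed means 1 TPM or more in each library. Ratios used counts rounded to whole numbers, with 0.5 added, scaled by TMM (edgeR 4.0.16 in R 4.3.3) over the 12457 genes that pass its expression filter, with factors of 0.982 and 1.02. The ratio step was tested on simulated data. The simulation held no trend on GC content, so it checks the calculation and not the ratios of these libraries. GC content is that of all annotated transcripts of a gene, and 1 alternative subtracts a lowess trend of the ratio on it (span 0.3). Shared sequence is the percent of a gene's 36-mers found in another gene. Size factors of DESeq2 1.42.0 were an alternative. The remaining steps ran in Python 3.11.15 with pandas 2.3.3, numpy 2.4.6, scipy 1.17.1, statsmodels 0.14.6 and matplotlib 3.10.9. Sequences came from RefSeq (GRCm38.p6) and GENCODE M21.

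Of the polymerase I, snoRNP, exosome and high abundance lists all members are named. Of the other lists those named are the 3 highest and 3 lowest by mean TPM, those 2-fold apart and both genes of each pair, and of each partner list the 3 highest. Others are named for a promoter or a transcript. The genes and lists were chosen with earlier results of these data known. Alternatives changed the threshold, the pseudocount, the unit, the scaling, the count minimum and the libraries used.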

Additional observations from a re-analysis of the deposited data

How the results depend on the processing

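With 1 group and 2 libraries, no setting turns a description into a test, and no paired analysis was possible because there is 1 group. Of 32 alternative values, 28 stayed within the set limits. These limits were wide. They took in 12 genes apart against 8, and a median log2 ratio of 0.47 against 0.21. The median level of the genes, 5.97 on the log2(TPM + 1) scale, was 6.29 with TPM rescaled over protein-coding genes and 5.59 with FPKM, and without each replicate it ranged from 5.90 to 6.03. The count of genes at least 2-fold apart between the libraries, 8, was 4 with the GC trend subtracted, 12 with DESeq2 size factors and 14 with TMM over all annotated genes, the last chosen after seeing the data. These are 7.27%, 21.8% and 25.5% of the genes, against 17.5%, 28% and 28.2% of protein-coding genes, so with the last scaling the gap of 14.5% against 25.4% nearly closes. Both DESeq2 and this scaling shift the median of all protein-coding genes, to 0.25 and 0.26. Each scaling moves every log2 ratio by the same amount, so the gap of 0.20 to the median of the 55 genes could not change. Exosc9, Exosc3 and Nol4l were apart in 7 of 7 settings. The pairs apart, 6, numbered 7 without replicate 1 and 9 without replicate 2. Depth limits Nol3, at 22 and 32 counts.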

Other observations

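Processed pseudogenes that share sequence with these genes also carried counts. Fbl shares 20.2% of its 36-mers with other genes, and Gm5812, the copy that shares most, had 750 counts in replicate 1 and 581 in replicate 2, beside 7730 and 19359 for Fbl. Polr1d shares 11.3%, and Gm12751 had 1063 and 2304 counts, beside 3008 and 7645 for Polr1d. Rrp7a shares 8.65%, and Gm3436 had 54.2 and 269 counts, beside 6884 and 9777. Nop53 shares 8.67%, and Gm6085 had 67.4 and 23.4 counts, beside 11569 and 19999.6. Nop56 shares 21.4%. Of the 56 genes 21 share none and 7 share over 5%. How reads were divided between these copies was not tested.

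A protein-coding gene overlaps 16 of the 56 genes on the opposite strand, which is 28.6%, against 23.6% of expressed and 16.7% of all protein-coding genes. They include 5 of the 9 exosome genes, among them Exosc8 with Supt20, Exosc4 with Oplah and Exosc5 with Tmem91.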
